A study of Mus musculus with 16 samples.

Results

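The Nrf2 oxidative stress genes described here are 10 antioxidant response genes chosen by name, Hmox1, Nqo1, Gclm, Gclc, Txnrd1, Srxn1, Slc7a11, Prdx1, Gsr and Sod2, out of 31053 genes in the deposited matrices. Their RNA was counted in 16 single-cell libraries of living CD45+ leukocytes that were enriched with magnetic beads and then sorted from subcutaneous flank tumors of C57BL/6J mice. The tumors grew from MC38, a colorectal carcinoma line, or from Panc02-SIY, a pancreatic adenocarcinoma line that carries the model antigen SIY. For each line, 4 libraries came from untreated tumors and 4 from tumors taken 24 h after a single dose of 12 Gy. The mice of the study were 6 to 8 weeks old. Which animal gave which library is not given in the sources used here, and the sources differ on the number of animals per group, so the p-values below measure the spread between libraries, which may in part be technical. The question asked of the data was whether, and in which leukocyte classes, these genes differed between irradiated and untreated tumors.

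Nrf2, encoded by Nfe2l2, is a transcription factor that Keap1 holds in the cytoplasm and marks for degradation. Oxidants and electrophiles modify Keap1, after which Nrf2 enters the nucleus, pairs with small Maf proteins and binds antioxidant response elements, where Bach1 competes as a repressor. Its targets make and recycle glutathione, run the thioredoxin and peroxiredoxin cycles, and break down heme and quinones. Ionizing radiation produces reactive oxygen species in cells, and myeloid leukocytes also make them with their own oxidase. Sod2 is included as a mitochondrial antioxidant gene, although it is also a well known target of NF-kB.

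The core of the antioxidant response element, TGACNNNGC, was looked for on both strands of each promoter, taken as 250 bases before to 50 bases after a gene's start in the RefSeq table (GRCm38.p6). Of the 7 members with a promoter in that table, Gclm, Txnrd1, Prdx1 and Srxn1 held a match, while Nqo1, Slc7a11 and Sod2 held none in these windows. Hmox1, Gclc and Gsr had no entry. The match was present in 14.0% of 27025 genes of the table, in 12.4% of all 32851 promoters and in 14 of 47 genes (29.8%) of the wider pathway list described below. The 4 windows are shown because 3 of these genes are the ones the T cell results turn on. They are printed 5′ to 3′ on the strand opposite to the gene, with the matched bases in capitals.
Gclm: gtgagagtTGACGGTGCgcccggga
Txnrd1: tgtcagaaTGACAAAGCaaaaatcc
Prdx1: acgggggaTGACTCAGCgctttccc
Srxn1: tctcactcTGACCTAGCtgcccact
The windows lie at chr3:122245415-122245439 for Gclm, chr10:82859106-82859130 for Txnrd1, chr4:116685458-116685482 for Prdx1 and chr2:152105544-152105568 for Srxn1, all of them genes on the plus strand. Positions were counted along the gene's own strand from the transcript start that defines each promoter. The first matched base in that direction, which is the last capital as printed, was at −134 in Gclm, −92 in Txnrd1, −133 in Prdx1 and +29 in Srxn1. The table gives Txnrd1 3 promoters, and the match lay in 1 of them (chr10:82858956-82859255), at a start inside the gene, while the promoter at the gene's first base and the remaining one held none. A match is a run of letters and was not taken as a bound site.

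Depth differed between the tumors. MC38 libraries kept 147 to 609 barcodes and 1385711 to 8500889 UMIs, and Panc02-SIY libraries kept 1113 to 4452 barcodes and 5275195 to 43708746 UMIs. Barcode sequences were shared between libraries: the 9843 called MC38 barcodes held 2632 distinct sequences, of which 769 occurred in all 8 MC38 libraries, while 187 of 18136 Panc02-SIY sequences were shared. Each sequence was therefore kept only in the library of its tumor that held most of its UMIs, which left 20768 of 28678 barcodes. Of these, 16691 (80.4%) fell into 1 of 7 classes by marker genes, and 1346 of all kept barcodes lay near the limit of that gate. The markers fitted the class names: the summed T cell markers stood at 4329 to 5697 CPM (counts per 1000000 UMIs) in gated T cells, the macrophage markers at 10225 to 16457 in macrophages and the neutrophil markers at 31435 to 50988 in neutrophils. Of the MC38 libraries only T, NK, macrophage and monocyte classes held enough barcodes to be tested, since they contained 11 B cells, 16 neutrophils and 39 conventional dendritic cells (cDC) in all. The p53 targets Phlda3 and Ccng1 were called higher after irradiation in 4 of 4 MC38 classes and Cdkn1a in 3 of 4, where 2.24% of all gene and class pairs were. In Panc02-SIY, Cdkn1a was called higher in 4 of 6 classes, Ccng1 in 3 of 6 and Phlda3 in 3 of 4, against 1.11% of all pairs. This is the direction the labels give. None of these targets was called in Panc02-SIY monocytes, where 0 of 7066 genes were called. One Panc02-SIY untreated library, replicate 1, stood apart in its macrophages, neutrophils and cDC.

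The members were first described in the untreated Panc02-SIY libraries, where all 7 classes were measured (n = 4 libraries, 3 for B cells). Levels are CPM, the UMIs of a gene scaled to the total of the class in a library, given as mean ± SD, and are compared between classes within a gene. Every order below is a description, because 0 of 60 pairs of neighbouring classes passed an exact sign-flip permutation test at an adjusted p below 0.1. With 4 paired libraries that exact test cannot go below p = 0.125. The 2 pairs measured in 8 libraries that held in 8 of 8, Gsr higher in monocytes than macrophages and Prdx1 higher in macrophages than monocytes, reached the smallest p that 8 libraries allow, 0.0078 (exact, two-sided), and an adjusted p of 0.188.

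**Figure D1:**
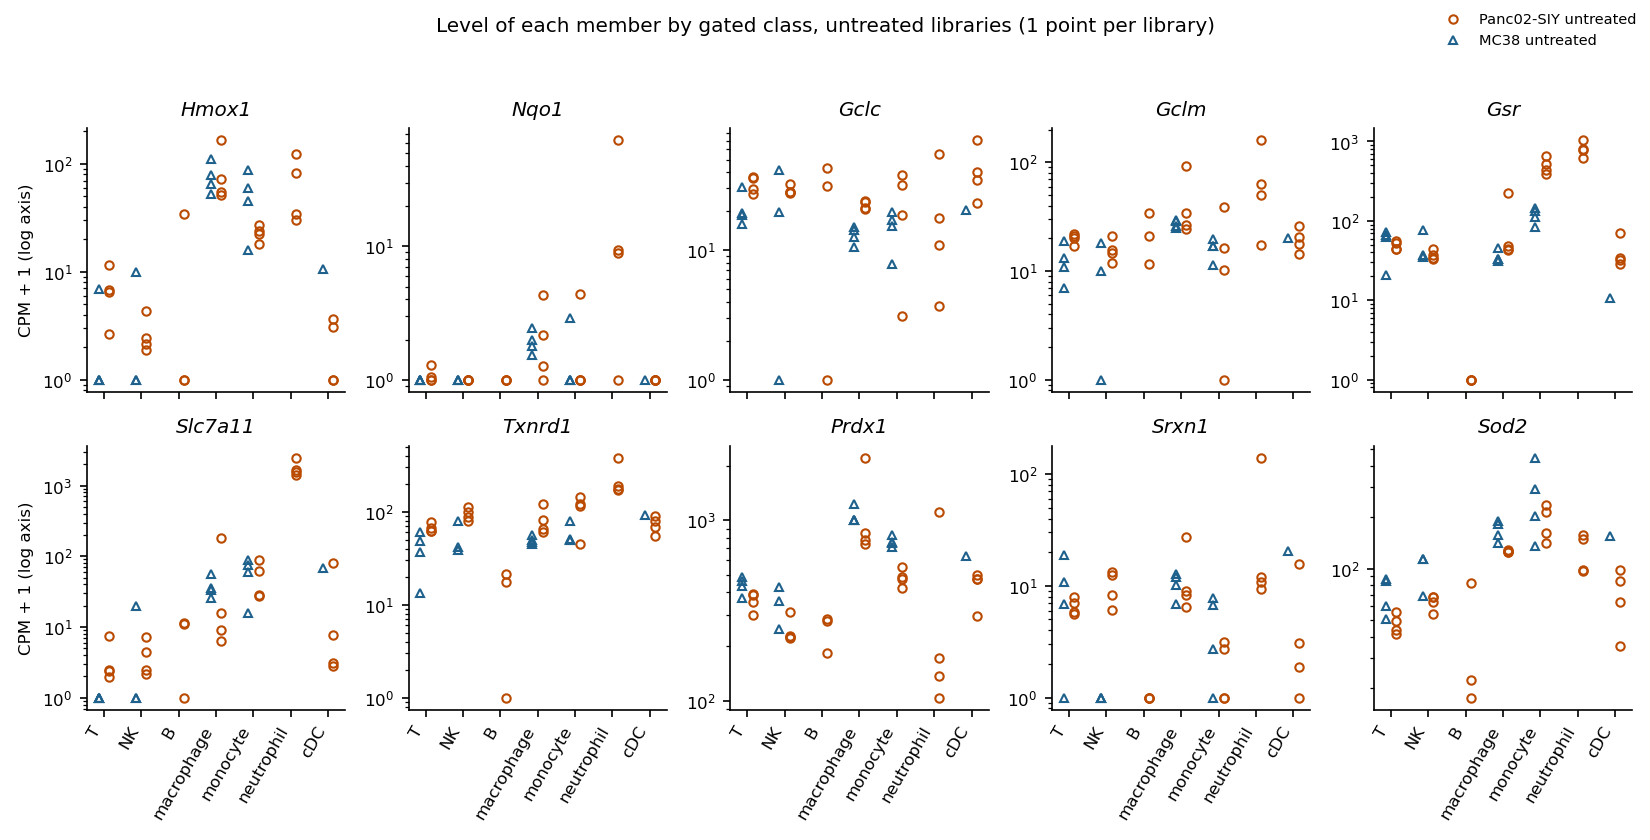
Level of each member in untreated libraries, as CPM + 1 on a log axis, for the 7 gated classes on the x axis. Circles are Panc02-SIY and triangles MC38 libraries, 1 point per library, and Slc7a11 sits at 1393 to 2455 CPM in Panc02-SIY neutrophils while in T cells it stays at or below 6.41 CPM.

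Among the glutathione genes, Slc7a11 (ENSMUSG00000027737, chr3:49892526-50443614, minus strand) encodes the cystine carrier of system xc-, which brings in the precursor of glutathione. It stood at 2455, 1393, 1575 and 1650.3 CPM in the neutrophils of the 4 libraries, against means of 51.8 ± 84.7 in macrophages, 50.5 ± 29.2 in monocytes, 22.3 ± 37.6 in cDC, 6.89 ± 5.97 in B cells, 3.06 ± 2.37 in NK cells and 2.56 ± 2.57 in T cells. The macrophage mean came from untreated replicate 1 at 179 CPM and was 9.44 ± 4.96 over the other 3 libraries, all of which lay below every monocyte library. In replicate 1, a single barcode held 36 of the 54 macrophage Slc7a11 UMIs. Every neutrophil library was far above every library of the other classes. A Slc7a11 UMI was found in 78.7% of untreated and 78.2% of irradiated neutrophils, and in 1.07% and 1.497% of T cells. With each barcode thinned to 1000 UMIs these shares were 63.1%, 63.8%, 0.289% and 0.340%, so the gap between the classes remained at equal depth. Gated neutrophils held 64.2% of all 12162 Slc7a11 UMIs of the series, although MC38 libraries had almost none of these cells. In MC38, Slc7a11 was listed at 0 in T cells of all 7 libraries tested and stood at 58.7 ± 31.4 CPM in untreated monocytes.

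Gsr (ENSMUSG00000031584, chr8:33652523-33698163, plus strand) encodes glutathione reductase, which returns oxidized glutathione to its reduced form with NADPH. Neutrophils held 1044, 793, 775 and 625 CPM of Gsr and monocytes 657, 437, 514 and 384 CPM, and the 2 classes overlapped. All 8 of these values were above the macrophages, which stood at 42.6, 46.6 and 41.9 CPM in replicates 2 to 4 and at 222 CPM in replicate 1. T cells, cDC and NK cells followed at 48.1 ± 6.19, 40.1 ± 19.3 and 36.4 ± 5.13 CPM (cDC 30.5 ± 2.97 without replicate 1 at 68.7 CPM), and B cells were at 0 in all 3 libraries. Gclc (ENSMUSG00000032350, chr9:77754535-77794485, plus strand) and Gclm (ENSMUSG00000028124, chr3:122245557-122270732, plus strand) encode the catalytic and the modifier subunit of glutamate-cysteine ligase, the first step of glutathione synthesis. The catalytic subunit was spread evenly, from 41.2 ± 20.4 CPM in cDC and 31.3 ± 4.75 in T cells to 21.0 ± 23.1 in neutrophils, with overlap throughout. The modifier subunit was highest in neutrophils at 160.0, 49.5, 62.8 and 16.4 CPM, a spread that contained the macrophage values, and lowest in NK cells at 14.8 ± 3.89 CPM by its mean.

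In the thioredoxin branch, Txnrd1 (ENSMUSG00000020250, chr10:82833951-82897712, plus strand) encodes the cytosolic thioredoxin reductase. It stood at 378, 172, 176 and 187 CPM in neutrophils, above every monocyte library (43.8 to 142 CPM), and the classes from monocytes at 105 ± 42.6 CPM to T cells at 66.1 ± 7.02 CPM overlapped. Prdx1 (ENSMUSG00000028691, chr4:116685544-116700822, plus strand), a peroxiredoxin that reduces hydrogen peroxide, stood at 2218, 855, 741 and 776 CPM in macrophages. These were above every library of the other classes except the neutrophils of replicate 1 at 1116 CPM, whose 3 fellow libraries held 103, 172 and 135 CPM. Srxn1 (ENSMUSG00000032802, chr2:152105516-152111376, plus strand) encodes sulfiredoxin, which repairs overoxidized peroxiredoxins. Its neutrophil mean of 41.8 ± 64.2 CPM came from replicate 1 at 138 CPM, since the other neutrophil libraries held 9.89, 8.38 and 10.9 CPM, values inside the spread of macrophages (5.41 to 26.5 CPM) and of NK cells (5.03 to 12.3 CPM). In that replicate 1, 5 neutrophil barcodes held 85.7% of the 307 Prdx1 UMIs of the class.

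Hmox1 (ENSMUSG00000005413, chr8:75093621-75100589, plus strand) encodes heme oxygenase 1, which degrades heme and is abundant in macrophages that clear erythrocytes. It stood at 166, 53.4, 50.7 and 71.5 CPM in macrophages and at 124, 33.6, 29.3 and 81.9 CPM in neutrophils, which overlapped, and both were above the monocytes at 26.3, 23.0, 16.96 and 21.2 CPM. T, NK and dendritic cells were at or below 10.6 CPM in every library. Macrophages held 5921 (70.7%) of all 8374 Hmox1 UMIs of the series, and 2521 of these lay in 4 barcodes of MC38 irradiated replicate 4. In untreated Panc02-SIY replicate 1, the library with the highest values above, 1 barcode held 52.0% of the 50 macrophage Hmox1 UMIs. Another 1 held 58.8% of its 34 neutrophil Hmox1 UMIs. Nqo1 (ENSMUSG00000003849, chr8:107388225-107403206, minus strand), the quinone reductase often used as a readout of Nrf2 activity, was barely measured: 106 UMIs in 76 of the 20768 barcodes (0.366%), of which 46.2% lay in gated neutrophils. It passed the filter on low counts in no class, so nothing can be said about its response. Sod2 (ENSMUSG00000006818, chr17:13006846-13040063, plus strand), the mitochondrial superoxide dismutase, was highest in monocytes at 140.2, 161, 214 and 236 CPM. Macrophages at 125 ± 2.05 CPM lay below all of these, neutrophils at 124 ± 32.1 overlapped them, and T cells were at 46.5 ± 6.32 CPM.

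The genes whose level most resembled each member were ranked by Pearson's r over 22 class-by-group means among 6088 genes, as a description in which the points share libraries and depth. For Slc7a11 they were Ptgs2 (0.972), Trem3 (0.966) and 1600010M07Rik (0.965), and for Hmox1 Fth1 (0.942), Alas1 (0.939) and Lair1 (0.938). Gsr was followed most closely by Cd44 (0.945), Zbtb7b (0.927) and Cdk2ap2 (0.918), Prdx1 by Tmem14c (0.942), Clta (0.927) and Rbfa (0.918), and Sod2 by F10 (0.941), Ifi204 (0.940) and Capza2 (0.940). For Gclm they were Tmem140 (0.912), Il1f9 (0.863) and Slc40a1 (0.858), for Gclc Gpd2 (0.902), Ly75 (0.874) and Uba6 (0.868), and for Txnrd1 Ccdc88b (0.921), Tnrc18 (0.912) and Fgl2 (0.906). Fth1, a subunit of the iron store ferritin, and Slc40a1, the iron exporter, are themselves genes of the wider Nrf2 pathway list. Srxn1 and Nqo1, with means below 20 CPM, were not compared.

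At 24 h after 12 Gy, few of the members differed within a class. A member was called where edgeR's quasi-likelihood test gave a Benjamini-Hochberg adjusted p below 0.1 over all genes of the class and a fold change above 1.3. In MC38, 0 of 32 member and class pairs were called, while 3.99% of all 35063 gene and class pairs were. Of those 1399 calls, 1314 were in macrophages, where 0 of 9 members and 13.2% of all genes were called. The shares of all genes were 0.478% in T cells, 0.262% in NK cells and 0.241% in monocytes. At an unadjusted p below 0.05 there were 3 member and class pairs in MC38, and DESeq2 also called 0. In Panc02-SIY, 2 of 47 pairs were called, against 2.71% of all 46564: 0 higher, against 1.11%, and 2 lower, against 1.61%. These were Prdx1 and Gclm, both in T cells, and DESeq2 called 1 pair higher and 2 lower. At an unadjusted p below 0.05 there were 7 pairs in Panc02-SIY, and in 6 of 47 pairs the irradiated and untreated libraries did not overlap, where 8.69% of all gene and class pairs did not. In MC38 this held for 2 of 32 pairs, where it held for 11.7% of all. The test of the difference between the tumors called 0 of 32 pairs (0.0114% of all genes), 1 of them at an unadjusted p below 0.05, and DESeq2 also called 0. Counts at an unadjusted p below 0.05 and counts by DESeq2, here and below, have no share over all genes beside them. They are therefore not read as a result about the members or the wider list. The median log2 fold change of the members that passed the filter was 0.01 in T cells, 0.35 in NK cells, 0.16 in macrophages and 0.15 in monocytes of MC38, where all genes tested had medians of 0.04, 0.01, 0.03 and 0.01. For Panc02-SIY it was −0.06 in T cells, 0.06 in NK cells, −0.05 in macrophages, 0.17 in monocytes, 0.13 in neutrophils and 0.30 in cDC, beside medians of −0.02 to 0.03 over all genes. On simulated counts with the same depths, 2-fold changes were recovered in 15% to 82% of genes and 4-fold changes in 47% to 99%, depending on class and tumor. Recovery was lowest in MC38 T and NK cells, at 17% and 15% of 2-fold and 53% and 47% of 4-fold changes. These shares cover genes of all levels together. A modest change could thus go uncalled in any class, and in MC38 T and NK cells so could a large one.

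**Figure D2:**
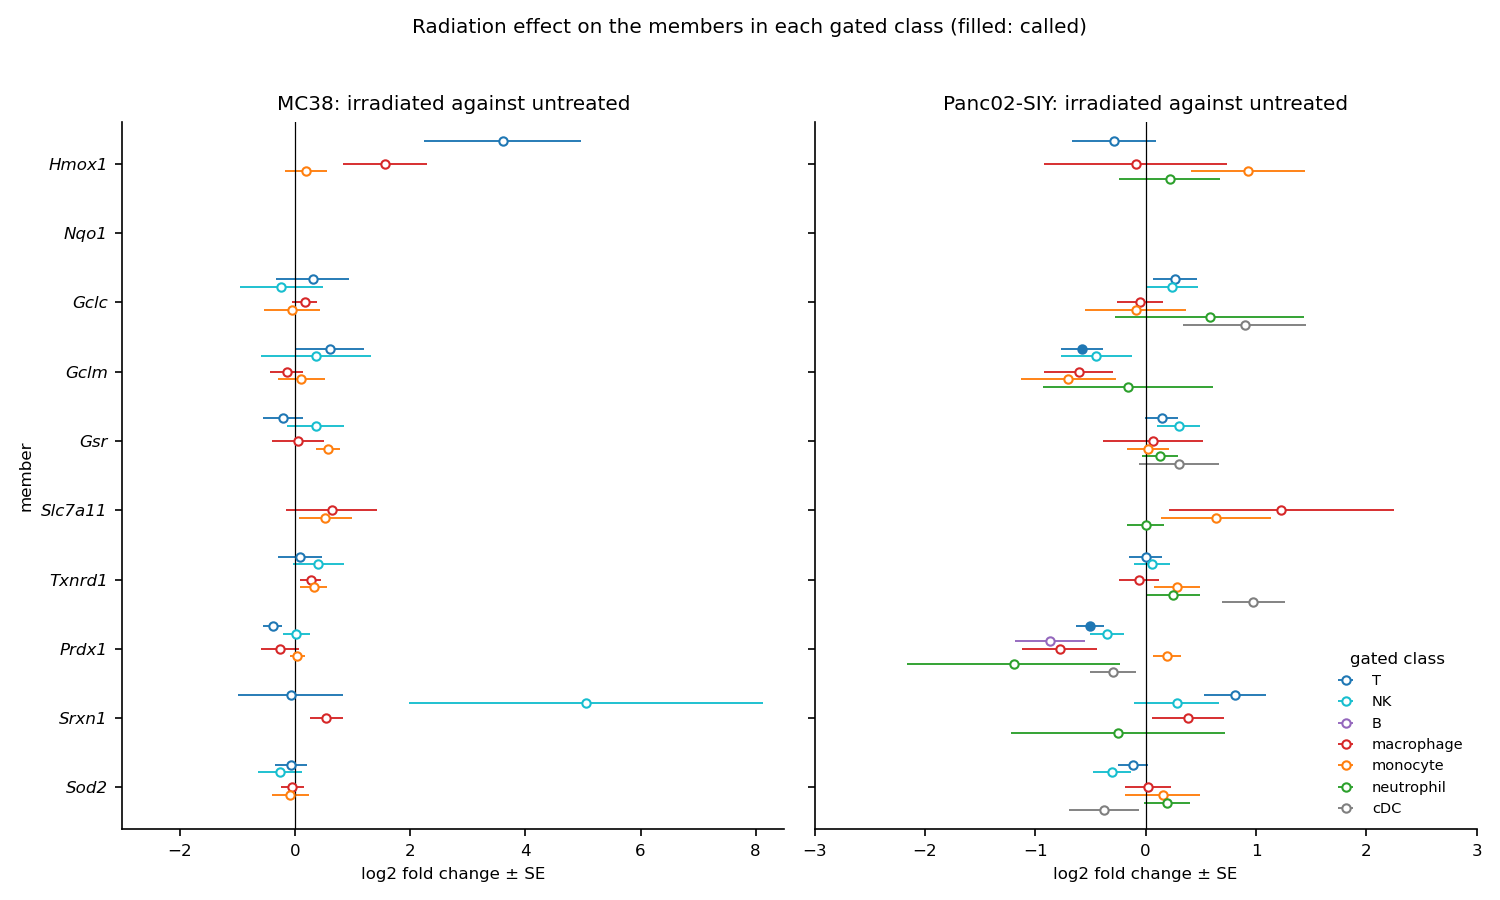
Log2 fold change of irradiated against untreated libraries (x axis) for each member that passed the count filter, with 1 colour per gated class and 1 panel per tumor. Bars are ± the approximate SE derived from the F statistic of the test. Filled points were called, which are only Prdx1 (−0.50) and Gclm (−0.58) in Panc02-SIY T cells.

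In the T cells of Panc02-SIY, a peroxiredoxin and a glutathione synthesis gene were lower and sulfiredoxin had higher values after irradiation. Prdx1 stood at 298, 388, 351 and 386 CPM in untreated and at 245, 279, 290.2 and 253 CPM in irradiated libraries. Every irradiated library was below every untreated one, and the log2 fold change was −0.50 ± 0.13 (SE, adjusted p = 0.0286). A Prdx1 UMI was found in 79.5% of untreated and 68.0% of irradiated T cells, or 26.2% and 20.2% at 1000 UMIs per cell. Gclm stood at 15.99, 20.004, 19.1 and 21.1 CPM against 10.5, 15.7, 15.4 and 12.1 CPM, again without overlap, and fell by 0.58 ± 0.19 on the log2 scale (adjusted p = 0.0925). Srxn1, whose product acts on Prdx1, stood at 4.88, 6.97, 4.64 and 5.95 CPM against 14.8, 8.86, 10.5 and 10.2 CPM. All 4 irradiated libraries were above all 4 untreated ones, yet the log2 fold change of 0.81 ± 0.28 missed the threshold (adjusted p = 0.113). Its adjusted p ranged from 0.0220 with DESeq2 to 0.154 over the alternatives. In this class 634 of 9616 genes (6.59%) were called in either direction, and 384 (3.99% of all genes tested) were called lower.

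The median share of T cells with UMIs of cycling genes was also lower in irradiated Panc02-SIY libraries, although the groups overlapped. The shares are not thinned to equal depth: these T cells had a median of 8132 UMIs per barcode in untreated and 6070 in irradiated libraries. A UMI of at least 1 of 6 mitotic genes (Mki67, Top2a, Birc5, Cdk1, Ccnb2, Ube2c) was found in 39.5% to 58.5% of untreated Panc02-SIY T cells (median 49.0%) and in 27.5% to 45.2% of irradiated ones (median 33.8%). Without those barcodes, Prdx1 had a log2 fold change of −0.31 (adjusted p = 0.448), Gclm −0.43 (0.540) and Srxn1 0.97 (0.154), and no member was called. Both calls ended in this smaller set of barcodes, where both log2 fold changes stayed negative and Srxn1 was not called either. The setting was chosen after seeing the data, and the part of cycling in these differences was not tested. Leaving out untreated replicate 2, untreated replicate 4 or irradiated replicate 1 also ended the call of Prdx1, with log2 fold changes of −0.42 to −0.43 and adjusted p of 0.132 to 0.146. The call of Gclm was lost without any 1 of the Panc02-SIY libraries except untreated replicate 1, and without MC38 irradiated replicate 3, with adjusted p of 0.102 to 0.329.

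**Figure D3:**
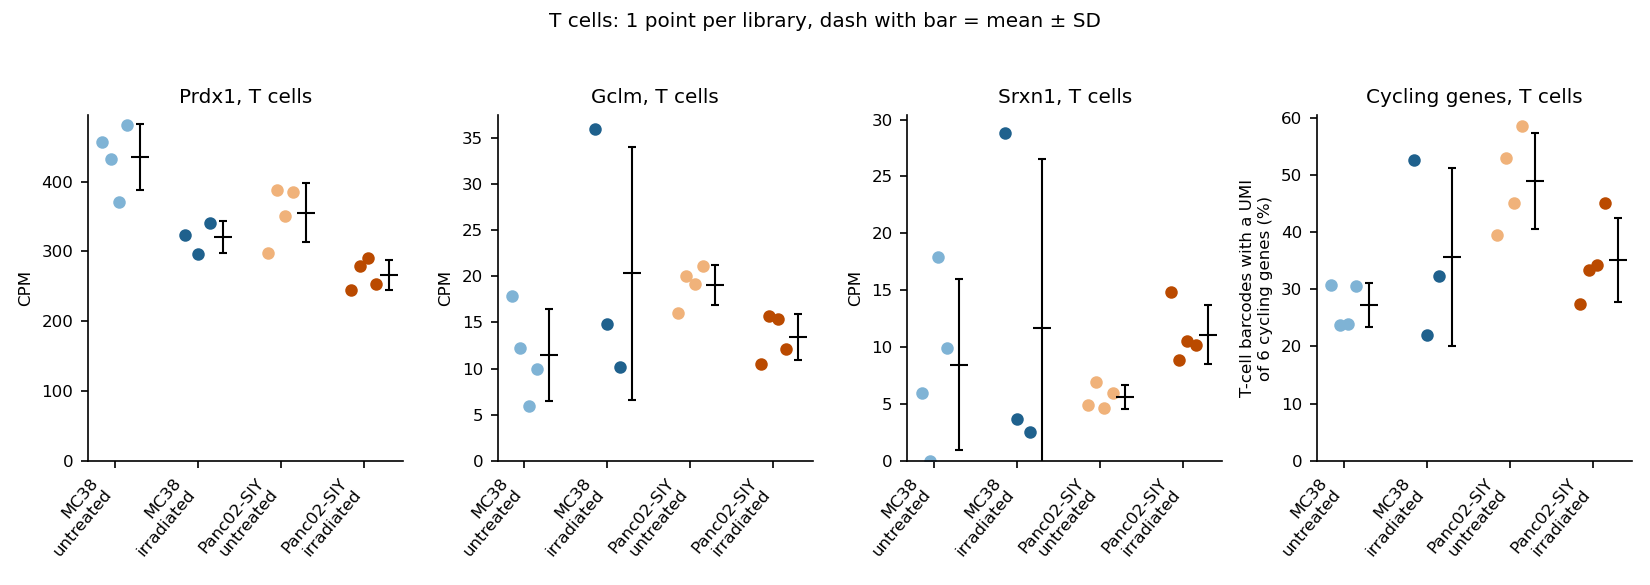
CPM of Prdx1, Gclm and Srxn1 in gated T cells and, in the last panel, the percentage of T cell barcodes with a UMI of 6 mitotic genes, for the 4 groups on the x axis. Points are libraries and bars the mean ± SD, and in Panc02-SIY all 4 irradiated libraries lie below the untreated ones for Prdx1 and Gclm and above them for Srxn1.

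Prdx1 had values of the same direction in MC38 T cells and in Panc02-SIY NK and B cells, without passing the test. It was fitted higher in NK cells and monocytes of MC38 (log2 fold change of at most 0.04) and in 1 of 7 Panc02-SIY classes. In T cells of MC38 it stood at 458, 433, 371 and 481 CPM in untreated and at 324, 296 and 341 CPM in the 3 irradiated libraries with enough barcodes, with no overlap and a log2 fold change of −0.39 ± 0.16 (adjusted p = 0.427). The difference between the tumors was 0.11 ± 0.21 on the log2 scale (adjusted p = 0.991). In MC38 T cells the share with a mitotic UMI was 23.8% to 30.8% in untreated and 22.0% to 52.6% in irradiated libraries. There too the groups overlapped. NK cells of Panc02-SIY held 222, 308, 226 and 226 CPM of Prdx1 against 200.3, 215, 201 and 178 CPM after irradiation, again with no overlap but with an adjusted p of 0.381. B cells held 274, 283 and 182 CPM against 87.7, 166, 168 and 133 CPM (−0.87 ± 0.32, adjusted p = 0.217). Untreated B cells were thus all above irradiated ones, in libraries of few B cells: 56 untreated and 119 irradiated barcodes in all.

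In macrophages, the class with the highest Prdx1, the irradiated and untreated values overlapped in both tumors. MC38 macrophages held 997, 999, 1238 and 997 CPM in untreated and 715, 735, 669 and 1091 CPM in irradiated libraries. Irradiated replicate 4 lay within the untreated range and the other 3 below it, and the log2 fold change was −0.27 ± 0.33. In Panc02-SIY macrophages, irradiated libraries held 839, 645, 637 and 514 CPM and overlapped the untreated ones given above (−0.78 ± 0.34, adjusted p = 0.256). Untreated replicate 1, at 2218 CPM, lay far above the rest, and a single barcode with 300 Prdx1 UMIs held 44.8% of the 670 in its macrophages. That barcode had 3 macrophage marker UMIs among 10822, so it only just met the gate, and without it the library stood at 1270.2 CPM.

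In monocytes, Srxn1 was below the filter but separated the Panc02-SIY groups. It had 0, 0, 1 and 1 UMIs in untreated and 10, 24, 13 and 16 UMIs in irradiated monocytes, or 0, 0, 1.70 and 2.12 CPM against 14.2, 23.6, 8.18 and 7.70 CPM. All irradiated libraries were above all untreated ones, in 146 untreated and 548 irradiated barcodes. With no filter the fitted log2 fold change was 3.04 ± 0.81 (adjusted p = 0.0202), and with a minimum count of 3 the adjusted p was 0.183. As Srxn1 failed the main filter here and its UMIs lay almost only in irradiated libraries, neither fit is taken as support for a change. In MC38 monocytes, Srxn1 stood at 0, 1.72, 5.70 and 6.72 CPM against 5.26, 13.8, 8.62 and 7.05 CPM, which overlapped. Gsr in MC38 monocytes stood at 131, 144, 83.7 and 112 CPM against 237, 148, 166 and 142 CPM, which overlapped in 1 pair of libraries (0.57 ± 0.21, adjusted p = 0.395).

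Dendritic cells of Panc02-SIY held 88.4, 77.8, 53.2 and 68.1 CPM of Txnrd1 in untreated and 244, 113, 126 and 116 CPM in irradiated libraries. The groups did not overlap, and the log2 fold change of 0.97 ± 0.29 gave an adjusted p of 0.342 in a class where 0.0842% of genes were called. T cells of MC38 had 0, 0, 1 and 0 Hmox1 UMIs in untreated libraries and 1, 3 and 10 in irradiated ones, or 0, 0, 5.98 and 0 CPM against 7.20, 11.1 and 25.5 CPM. The irradiated libraries were all higher, on very few UMIs. That is 1 of 95 against 14 of 129 barcodes, or 0 against 2 barcodes (1.57%) at 1000 UMIs per cell, beside 2 of 51 and 2 of 70 NK cells before thinning. Of the irradiated UMIs, 10 came from replicate 4, whose macrophages held 2807 Hmox1 UMIs, and the part of free RNA was not tested. The fitted log2 fold change of 3.61 ± 1.36 did not pass the test (adjusted p = 0.344). Hmox1 in monocytes of Panc02-SIY stood at 21.4, 64.0, 29.6 and 43.3 CPM after irradiation and overlapped the untreated libraries (0.93 ± 0.51, adjusted p = 0.599).

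No other member was called in any class. Sod2 had log2 fold changes of −0.26 to −0.05 in the 4 MC38 classes and of −0.38 to 0.19 in 6 Panc02-SIY classes. Gsr ranged from 0.02 to 0.30 in 6 Panc02-SIY classes and was called in none of them, and its 0.02 in monocytes was −0.00 with DESeq2 and with a replicate block. Gclc ranged from −0.24 to 0.30 in MC38 and from −0.09 to 0.90 in Panc02-SIY, and Txnrd1 from 0.09 to 0.41 and from −0.06 to 0.97. Slc7a11 passed the filter in 2 MC38 classes (0.52 and 0.63) and 3 Panc02-SIY classes (−0.00 to 1.23), and Hmox1 ranged from −0.29 to 0.93 in 4 Panc02-SIY classes. Srxn1 was at 0 in all 3 untreated NK libraries of MC38 and at 0, 8.78 and 4.76 CPM in irradiated ones, so no fold is given. In neutrophils of Panc02-SIY, the class in which Slc7a11 and Gsr were highest, Slc7a11 stood at 1636, 2034, 1846 and 1617 CPM after irradiation, within the untreated range, with a difference smaller than its SE of 0.17. Gsr stood there at 834, 974, 1016 and 747 CPM, also within the untreated range (0.13 ± 0.16).

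In the sum over all CD45+ cells of a library, 2 glutathione genes rose in Panc02-SIY. In such a sum, fewer cells of a type and less RNA per cell cannot be told apart. Gsr stood at 118, 86.6, 98.4 and 74.2 CPM in untreated and at 207, 154, 218 and 102 CPM in irradiated libraries, with a log2 fold change of 0.78 ± 0.20 (adjusted p = 0.0170). Irradiated replicate 4 fell within the untreated range and the other 3 were above it. Slc7a11 stood at 127, 54.6, 45.7 and 35.3 CPM against 189, 147, 163 and 61.6 CPM (1.04 ± 0.39, adjusted p = 0.0928), with the same library inside the untreated range. These were 2 of 9 members tested, where 7.69% of 12447 genes were called higher and 14.7% in either direction. In MC38, 0 of 9 were called (11.7% of all genes), 3 at an unadjusted p below 0.05, while DESeq2 called 1. Gsr in MC38 stood at 42.1, 63.1, 40.9 and 43.9 CPM against 80.1, 56.4, 73.0 and 55.1 CPM (0.57 ± 0.21, adjusted p = 0.112). The difference between the tumors was −0.21 ± 0.29 for Gsr (adjusted p = 0.862) and −0.48 ± 0.57 for Slc7a11 (adjusted p = 0.826), and 0 of 9 members were called in it (0.345% of all genes).

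The share of the 2 classes with the highest Gsr differed between the same libraries. Neutrophils made up 9.79%, 8.66%, 5.19% and 5.64% of barcodes in untreated and 14.6%, 14.2%, 14.7% and 7.37% in irradiated Panc02-SIY libraries. Monocytes made up 1.08%, 1.28%, 3.86% and 0.943% against 6.26%, 5.25%, 7.57% and 6.01%. Irradiated replicate 4, the lowest in Gsr and Slc7a11, also had the lowest neutrophil share of its group. Untreated replicate 3 had the lowest neutrophil share and the highest monocyte share of the untreated group. Its Gsr of 98.4 CPM was above replicates 2 and 4 (86.6 and 74.2 CPM). The relation of Gsr to these shares across libraries was not tested. Summed neutrophil markers, all 6 detected, stood at 675 to 2281 CPM in untreated and at 1323 to 3378 CPM in irradiated libraries, and at 56.3 to 93.8 CPM in MC38. Without the gated neutrophils, the log2 fold change was 0.70 for Gsr (adjusted p = 0.0197) and 1.40 for Slc7a11 (adjusted p = 0.0234), and Srxn1 was then called higher (0.78, adjusted p = 0.0503) and Gclm lower (−0.41, adjusted p = 0.0896). The part of the monocyte share, and of any neutrophils left ungated, was not tested. Gsr kept its call without any 1 of 16 libraries (0.70 to 1.02), whereas Slc7a11 lost it without any 1 of Panc02-SIY untreated replicates 2 to 4 and irradiated replicates 1 to 3, and without any 1 of 6 MC38 libraries (all but irradiated replicates 1 and 2), with adjusted p of 0.105 to 0.218. It also lost it without cycling barcodes (0.51, adjusted p = 0.388). With barcodes thinned to 1000 UMIs neither gene was called (adjusted p = 0.119 and 0.193).

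**Figure D4:**
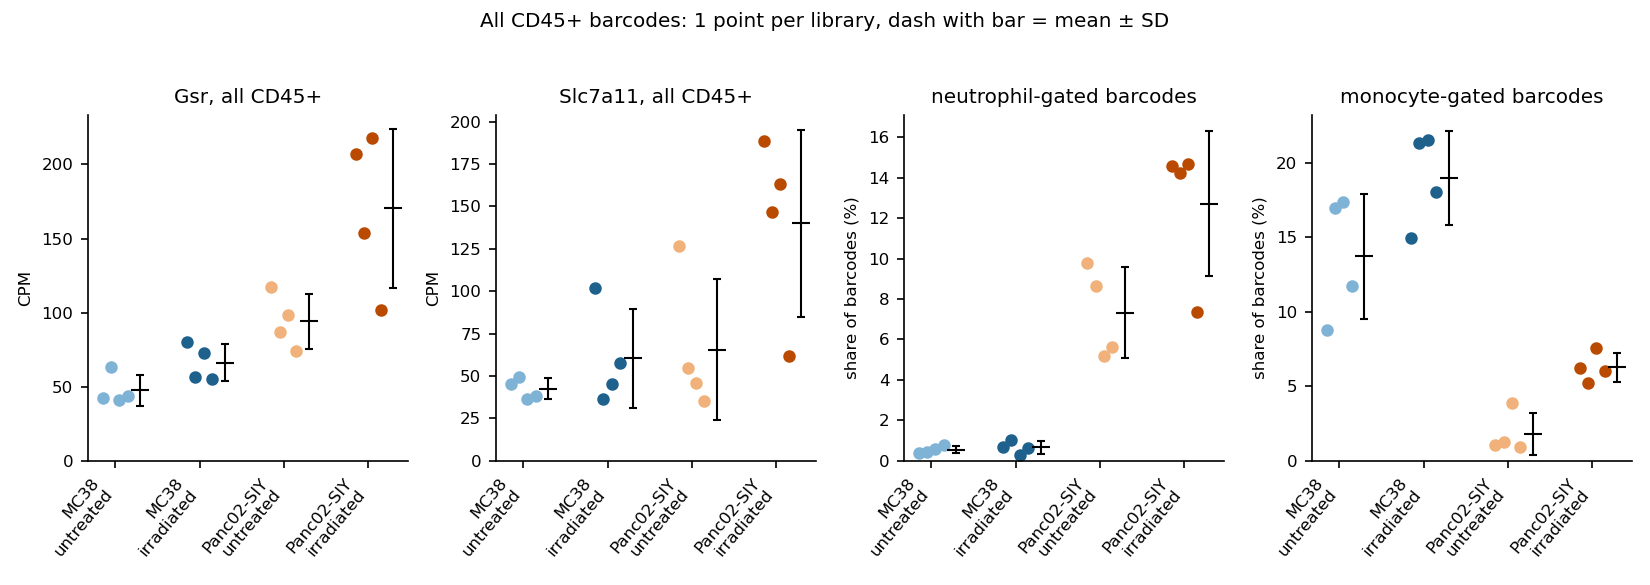
CPM of Gsr and Slc7a11 summed over all CD45+ barcodes of a library, and the percentage of barcodes gated as neutrophils and as monocytes, for the 4 groups on the x axis. Points are libraries and bars the mean ± SD, and irradiated Panc02-SIY monocyte shares (5.25% to 7.57%) all lie above the untreated ones.

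Before irradiation the members differed between the 2 tumors about as often as other genes did, in a contrast where tumor and library batch cannot be told apart and MC38 macrophages had a median of 23944 UMIs per barcode against 2240 in Panc02-SIY. Of 32 member and class pairs, 8 were called (25.9% of all genes), 3 of them higher in MC38 (12.6% of all genes) and 5 lower (13.2%). Monocyte Gsr was the clearest: 131, 144, 83.7 and 112 CPM in MC38 against 657, 437, 514 and 384 CPM in Panc02-SIY, without overlap, a log2 fold change of −1.93 ± 0.21 (adjusted p = 1.17e-07). Summed neutrophil markers in these monocytes were 58.5 to 87.3 CPM in MC38 (5 of 6 detected) and 157 to 254 CPM in Panc02-SIY (6 of 6), and their part in the difference was not tested. Prdx1 in monocytes stood at 714, 829, 747 and 759 CPM against 482, 419, 551 and 472 CPM (0.81 ± 0.13, adjusted p = 3.87e-05), without overlap, yet was 0.11 (adjusted p = 0.838) once barcodes were thinned to 1000 UMIs. Hmox1 in monocytes was higher by 1.66 ± 0.51 in MC38 and Sod2 in macrophages by 0.52 ± 0.20. Hmox1 was not called without Panc02-SIY untreated replicate 3 (1.51, adjusted p = 0.102), nor Sod2 without MC38 untreated replicate 2 (0.45, adjusted p = 0.115), without replicate 4, or with thinned barcodes (0.36, adjusted p = 0.264). Counting all alternatives other than leaving out 1 library, the Sod2 call was lost in 4 of 16.

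Txnrd1 was lower in MC38 in 3 of 4 classes: monocytes (−0.88 ± 0.24), macrophages (−0.52 ± 0.18) and T cells (−0.84 ± 0.28, adjusted p = 0.0662). The T cell call ended in 8 of 16 alternatives other than leaving out 1 library, among them thinned barcodes (−0.01) and no cycling barcodes (−0.10). It also ended without any 1 of MC38 untreated replicates 1 and 2 and Panc02-SIY untreated replicates 2 and 4. In such alternatives the macrophage call of Txnrd1 held in 14 of 16 and the monocyte call in 14 of 15. Gclc in macrophages was also lower, by −0.71 ± 0.20 (adjusted p = 0.00715). In the sum over CD45+ cells, where 61.1% of all genes were called, Prdx1 (1.21), Sod2 (1.48) and Hmox1 (1.92) were higher in MC38 and Txnrd1 (−0.44), Gsr (−0.79) and Gclc (−0.95) lower. With thinned barcodes Hmox1 (1.01, adjusted p = 0.174), Txnrd1 (−0.31, adjusted p = 0.229) and Gclc (−0.53, adjusted p = 0.288) were not called. Hmox1 was also not called without cycling barcodes (0.79, adjusted p = 0.393), and Txnrd1 fell short of the fold limit without gated neutrophils (−0.36) or without Panc02-SIY untreated replicate 4 (−0.37).

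In 1 irradiated MC38 library, most macrophage Hmox1 lay in very few cells. The untreated libraries held 111, 78.4, 64.8 and 51.6 CPM and the irradiated ones 47.1, 61.9, 51.1 and 597 CPM, so that 2 irradiated libraries were below the untreated range, 1 within it and replicate 4 far above it. The fitted log2 fold change of 1.55 ± 0.73 did not pass the test (adjusted p = 0.219). In replicate 4, 4 of 209 macrophage barcodes held 89.8% of the 2807 Hmox1 UMIs, and without them its level was 63.6 CPM. These barcodes had at least 10 Hmox1 UMIs and at least 1000 CPM, limits chosen after the values were seen. Such barcodes also held 52.9% of the macrophage Hmox1 UMIs in untreated replicate 1 and 35.4% in untreated replicate 2. There were none among the macrophages of the other 5 MC38 libraries. Outside the macrophage gate, MC38 monocytes held 1 in untreated replicate 3, 1 in untreated replicate 4 and 2 in irradiated replicate 2. In irradiated replicate 3, 1 ungated barcode held 203 of the 261 ungated Hmox1 UMIs. Of the remaining 1033 MC38 macrophages, 492 (47.6%) had an Hmox1 UMI. The highest held 1115 Hmox1, 791 Prdx1 and 36 Gclm UMIs of 76104, with 1030 UMIs of the macrophage markers and 1 UMI of the tumor, fibroblast and endothelial list. That barcode held 0 Nqo1, 0 Slc7a11, 1 Gclc, 1 Gsr, 1 Srxn1 and 3 Txnrd1 UMIs. The second held 806 Hmox1 and 225 Prdx1 UMIs of 56569, with 21 Gclc, 21 Slc7a11 and 15 Txnrd1 UMIs.

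Among the other members, Prdx1 and Gclm were also high in these cells, as were the ferritin genes, while several members were near 0 UMIs in the highest barcode. Over all MC38 macrophages, 6 such barcodes stood against 1033 others, with a median of 46283.5 against 22123 UMIs. Pooled levels were 6219.8 against 937 CPM for Prdx1 (medians over barcodes 5089 against 731 CPM), 322 against 21.5 CPM for Gclm, 20482 against 4884 CPM for Ftl1 and 37958 against 10041 CPM for Fth1, the light and heavy chains of ferritin. In Panc02-SIY macrophages, 12 such barcodes against 3254 others held 3995 against 694 CPM of Prdx1 and 405 against 25.6 CPM of Gclm. The barcode with 300 Prdx1 UMIs is among those 12, and the median over barcodes was 1033 against 556 CPM of Prdx1. The cells were picked by Hmox1 itself, from few libraries, so these levels are a description with no test. No doublet caller was run, and whether these barcodes hold 2 cells was not tested.

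**Figure D5:**
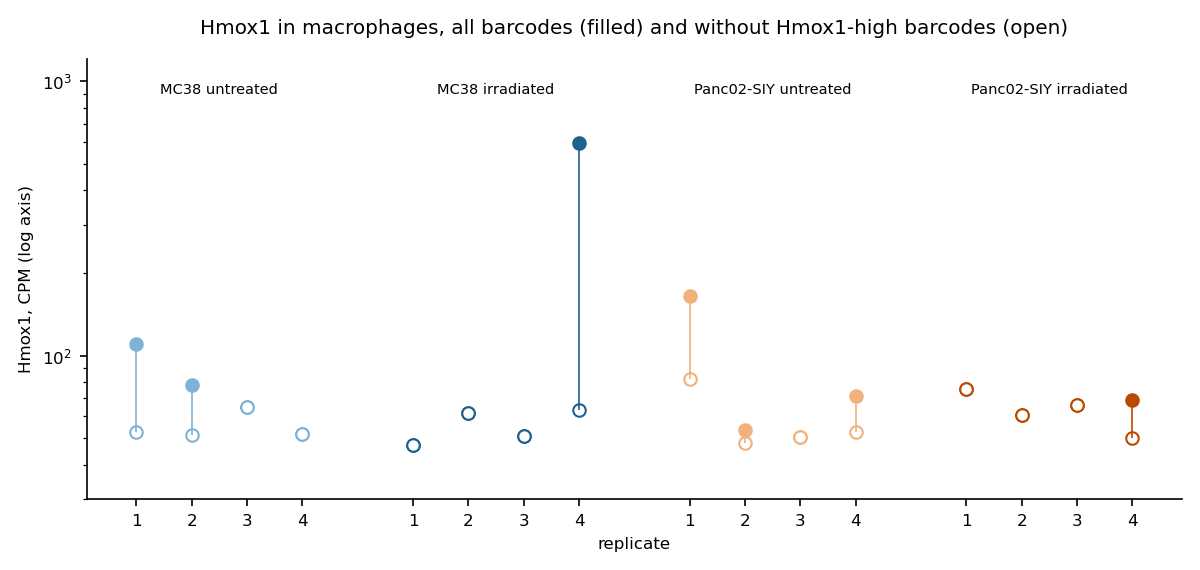
Hmox1 CPM in gated macrophages on a log axis, 1 position per library in the 4 groups. Filled points use all macrophage barcodes and open points leave out those with at least 10 Hmox1 UMIs and 1000 CPM, which takes MC38 irradiated replicate 4 from 597 to 63.6 CPM.

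A wider list of 53 Nrf2 pathway genes in 7 functional groups was counted in the same fits. In MC38, 5 of 178 gene and class pairs were called higher and 1 lower, against 2.24% and 1.75% of all 35063 pairs. All of these calls were among the 48 pathway genes tested in macrophages, a class in which 13.2% of all genes were called. The higher ones were Ephx1, an epoxide hydrolase (2.89 ± 0.58), Sesn2, a stress gene that p53 also induces (1.89 ± 0.22), the repressor Bach1 (0.62 ± 0.14), the thioredoxin inhibitor Txnip (0.54 ± 0.11) and the peroxiredoxin Prdx5 (0.43 ± 0.12). The peroxiredoxin of the endoplasmic reticulum, Prdx4, was lower (−1.32 ± 0.19, adjusted p = 0.000138). In Panc02-SIY, 4 of 260 pairs were called higher and 10 lower (2.71% of all genes), in T cells and macrophages only. Sesn2 rose by 1.77 ± 0.23 in T cells and by 1.48 ± 0.23 in macrophages, Txnip by 0.51 ± 0.15 in T cells and Nfe2l2, which encodes Nrf2 itself, by 0.44 ± 0.12 in macrophages. Prdx4 was lower in macrophages (−1.02 ± 0.20) and in T cells (−0.99 ± 0.27), and thioredoxin, Txn1, in T cells (−0.62 ± 0.15) and macrophages (−0.48 ± 0.13). The fifth of the largest falls was Tkt, a pentose phosphate enzyme, in T cells (−0.50 ± 0.15).

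By functional group, the thioredoxin and peroxiredoxin genes had 3 pairs higher and 1 lower of 39 in MC38 and 3 higher and 5 lower of 57 in Panc02-SIY. The regulators had 1 higher of 32 and 1 higher of 48. NADPH supply had 0 of 18 and 2 lower of 27, heme and iron 0 of 25 and 2 lower of 37, and detoxification 1 higher of 23 and 1 lower of 29. Glutathione synthesis and use had 0 of 33 and 0 of 50, and superoxide and peroxide removal 0 of 8 and 0 of 12. Of all gene and class pairs, 3.99% were called in MC38 and 2.71% in Panc02-SIY. The test of the difference between the tumors called 0 of 178 pairs (0.0114% of all pairs), and 15 had an unadjusted p below 0.05. Without cycling barcodes there were 4 calls in Panc02-SIY in place of 14, and 1 in MC38 in place of 6. The share of all genes called in that setting is not given.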

How the data were processed

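Per the submitters' processing notes, the authors made the matrices with bcl2fastq 2.20.0 and Cell Ranger 3.1.0 on mm10, from 10x Genomics 3′ libraries. The deposited values are raw UMI counts per gene and called barcode in 16 libraries, and the deposited aggregate of all libraries was not used. Each barcode was assigned to the class whose markers gave the highest score, with at least 2 markers detected and a score at least 1.5 times the next. The gate's limits were set after the files had been seen, and plasmacytoid, mast and non-leukocyte lists were added to it after results of a first gate were known, which took out 116 barcodes. No doublet caller was run. Counts were summed per library and class (at least 10 barcodes per library, 3 libraries per group), filtered with filterByExpr (minimum count 10, total 15), scaled by TMM and fitted with edgeR 4.0.16 in R 4.3.3, 1 fit per class over all 4 groups, without a block. Significance followed the limits of the study, an adjusted p below 0.1 and a fold above 1.3. The SE of a log2 fold change is its absolute value divided by the square root of the test's F statistic. It is therefore approximate, above all where a group holds zeros. Totals of 1385711 to 43708746 UMIs per library set the precision, and intervals or shares of barcodes cover counting error only. The fits were tested on simulated data. DESeq2 1.42.0 and the other alternatives are given at the end. The 10 members, the lists and the tests were chosen with earlier results of these data known. Genes named are the members, at most 5 pathway genes per direction and tumor by size of change, and the 3 most similar genes per member. Positions are from GENCODE on GRCm38.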

Additional observations from a re-analysis of the deposited data

Results flagged for a closer look

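In 171 sets of 4 libraries (1 member, class and group each), 25 had a highest or lowest library whose gap to the nearest other exceeded Dixon's 95% critical value. Chance flags about 1 in 20 such sets, which is 8.55 here. No explanation of these values was tested.

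Untreated Panc02-SIY replicate 1 accounted for 10 of the 25. Its macrophages held 2218 CPM of Prdx1 (others 741 to 855), 222 of Gsr (others 41.9 to 46.6), 179 of Slc7a11 (others 5.41 to 14.98), 92.7 of Gclm (others 23.7 to 33.6) and 26.5 of Srxn1 (others 5.41 to 8.04). Of these macrophage UMIs, 1 barcode that only just met the gate held 300 of 670 for Prdx1, 36 of 54 for Slc7a11 and 22 of 28 for Gclm. It also held 17 of 67 for Gsr, 2 of 8 for Srxn1 and 26 of 50 for Hmox1. The neutrophils of this library held 1116 CPM of Prdx1 (others 103 to 172), 138 of Srxn1 (others 8.38 to 10.9) and 378 of Txnrd1 (others 172 to 187). Its cDC held 68.7 CPM of Gsr (others 27.3 to 33.2) and only 295 of Prdx1 (others 469.5 to 494). Its T cells were in none of these sets, and without this library Prdx1 in T cells had a log2 fold change of −0.56 (adjusted p = 0.0136) and Gclm of −0.62 (adjusted p = 0.0660), while Gsr in all CD45+ cells had 0.95 and Slc7a11 1.60.

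Irradiated MC38 replicate 4 had 597 CPM of Hmox1 in macrophages (others 47.1 to 61.9), 351 in all CD45+ cells (others 40.4 to 91.1) and 1091 of Prdx1 in macrophages (others 669 to 735). In other macrophages, untreated MC38 replicate 3 had 1238 CPM of Prdx1 (others 997 to 999) and replicate 2 had 44.9 of Gsr (others 30.6 to 32.6).

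In MC38 monocytes, Txnrd1 was 79.1 CPM in untreated replicate 2 (others 48.5 to 49.7) and 94.6 in irradiated replicate 1 (others 64.8 to 65.5). In all CD45+ cells of MC38, Gsr was 63.1 CPM in untreated replicate 2 and Sod2 was 248 in irradiated replicate 1 (others 151 to 154). The single Hmox1 UMI of untreated MC38 T cells, in replicate 3, gave 5.98 CPM.

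In Panc02-SIY NK cells, Gclc was 31.5 CPM in untreated replicate 3 (others 26.8 to 27.3), Prdx1 was 308 in untreated replicate 2 (others 222 to 226) and Sod2 was 46.2 in irradiated replicate 2, below the others at 54.1 to 55.2. In irradiated Panc02-SIY, Txnrd1 was 244 CPM in the cDC of replicate 1 (others 113 to 126) and Hmox1 was 40.9 in all CD45+ cells of replicate 4 (others 19.4 to 22.3).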

How the results depend on the processing

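No called result changed direction under any alternative. The order of the classes changed for Hmox1 and Gclc with log2(CPM + 1). The cause of each change below was not tested, and the share of all genes called is not given for the alternatives. The counts are therefore not read as results about the members or the pathway list. Member calls in MC38 classes and in the difference between the tumors were 0 throughout. In Panc02-SIY classes the 2 calls were 4 with no filter and 4 with a gate lacking the check lists, where Gsr (0.53) and Slc7a11 (1.43) were higher and Gclm (−1.24) lower in monocytes, beside Prdx1 in T cells. They were 1 with RLE scaling, an adjusted p below 0.05, a stricter gate or barcodes thinned to 1000 UMIs, and 0 with a log2 limit of 0.58 or without cycling barcodes, and 0 to 3 when 1 library was left out. The 8 untreated calls were 3 thinned and 4 without cycling barcodes, and 6 to 10 without 1 library. In all CD45+ cells, MC38 had 1 call with DESeq2, with only the 2 groups, with a replicate block or without gated neutrophils, and 0 to 1 without 1 library (1 without irradiated replicate 1, untreated replicate 2 or Panc02-SIY irradiated replicate 4). There, Panc02-SIY had 1 with an adjusted p below 0.05, a cell filter, a minimum count of 3, no filter, only the 2 groups or thinning, 4 without gated neutrophils, and 1 to 3 without 1 library. Pathway calls in MC38 were 0 thinned and 1 without cycling barcodes (6 to 7 without 1 library). In Panc02-SIY they were 29 with the gate lacking the check lists, 5 at 0.58, 6 thinned, 4 without cycling barcodes and 3 to 17 without 1 library (3 without irradiated replicate 3, 4 without untreated replicate 4).

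A replicate block gave 30 pathway calls in Panc02-SIY in place of 14, and 1 member higher (Srxn1 in T cells, 0.79, adjusted p = 0.0258) and 2 lower. In all CD45+ cells it gave 3 members higher in Panc02-SIY, with Srxn1 (0.69, adjusted p = 0.0131). Nothing in the labels ties the numbers to a shared animal or day. In Panc02-SIY, 3 of 4 same-numbered pairs correlated above 0.1 in T cells (0.20 to 0.68) and replicate 2 did not (−0.04). Panc02-SIY libraries correlated best with their own number in 4 of 8 cases in T cells, macrophages and cDC. This held for 7 of 8 in NK cells, 5 of 6 in B cells, 5 of 8 in monocytes and 2 of 8 in neutrophils. Over all CD45+ cells it held for 6 of 8. In MC38 it held for 4 of 6 in T cells, 1 of 4 in NK cells, 0 of 8 in macrophages and 1 of 8 in monocytes. Over all MC38 CD45+ cells it held for 3 of 8. These are a hint from the data only, so the block is not used elsewhere. Leaving out cycling barcodes and leaving out gated neutrophils were chosen after seeing the data, as was the comparison with a gate lacking the check lists. The check lists of the main gate were themselves added after results of a first gate were known. Of the 116 barcodes they took out, 75 were gated as monocytes without them. Low members were limited by depth: Nqo1 could not be tested.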

Other observations

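In the sum over all CD45+ cells, where cell shares and levels per cell cannot be told apart, 10 of 51 pathway genes tested were called higher in irradiated Panc02-SIY (7.69% of all genes) and 2 lower (6.99%), and 6 (7.24%) and 1 (4.45%) in MC38. In Panc02-SIY the largest rises were Sesn2 (1.40 ± 0.15 on the log2 scale), Bach1 (1.17 ± 0.14), the microsomal glutathione transferase Mgst1 (0.78 ± 0.18), Ephx1 (0.77 ± 0.21) and the small Maf gene Maff (0.64 ± 0.17), with Nfe2l2 at 0.60 ± 0.14. Prdx4 (−0.80 ± 0.28) and Txn1 (−0.42 ± 0.14) were lower. In MC38 the largest were Ephx1 (2.24 ± 0.27), Sesn2 (1.64 ± 0.17), Mafk (0.54 ± 0.17), Bach1 (0.52 ± 0.14) and Prdx5 (0.47 ± 0.13), and Prdx4 was lower (−1.20 ± 0.29). Sesn2, Bach1, Ephx1, Mafk and Prdx5 were called higher and Prdx4 lower in both tumors. The 2 comparisons use separate libraries but come from 1 fit with 1 shared estimate of the spread, so they are not independent. The share of all genes called alike in both tumors is not given, so these shared calls are not read as a result about the list.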
